A study of Mus musculus with 28 samples.

Results

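The comparison is of p63 knockout (KO) against wild-type (WT) distal stomach and small intestine of mouse embryos at embryonic day 18 (E18). It uses 8 of the 28 Affymetrix mouse 430 2.0 arrays of the series, 4 KO and 4 WT, chosen by their labels as 2 arrays per genotype in each of the 2 tissues. All groups are of the Balb/c strain, and RNA came from collected tissue, although a general label on every sample speaks of stem cells. The sources used here name neither the p63 allele, nor the dissection, nor the number of embryos. The labels do not say that replicates are separate animals, so p-values measure the spread between these samples, which may be technical. Of 45037 probe sets other than controls, 28866 exceeded the median of their array on 2 or more of the 28 arrays and were tested. Values are on the log2 scale, so a difference of 1 is 2-fold. A probe set was called at an adjusted p under 0.05 with limma and Benjamini-Hochberg adjustment over all probe sets tested. Whole tissue was measured, so fewer cells of a type and less RNA per cell cannot be told apart.

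The p63 protein, encoded by Trp63 in mouse, is a transcription factor of the p53 family. It is known for maintaining the basal progenitor cells of stratified epithelia such as epidermis, and mice without it fail to form a stratified epidermis. The mouse stomach holds both kinds of epithelium: its proximal part, the forestomach, is lined by stratified squamous epithelium, and its distal part by a glandular simple columnar epithelium. The small intestine is lined by a simple columnar epithelium throughout.

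Few probe sets passed the test between KO and WT in these tissues. For the mean of both tissues 3 of 28866 probe sets were called, 0.0104%, and all 3 rose in KO. No probe set was called in distal stomach alone (smallest adjusted p 0.227 with limma; 1003 probe sets, 3.47%, at an unadjusted p under 0.05) or in small intestine alone (smallest adjusted p 0.958 with limma; 1256 probe sets, 4.35%, at an unadjusted p under 0.05), 0% in each. For the mean, 2108 probe sets had an unadjusted p under 0.05, which is 7.3%, with 1394 higher (4.83%) and 714 lower (2.47%). That count depended on single arrays: it was 601 without replicate 1 of WT small intestine, 696 without replicate 1 of WT distal stomach, 1045 without replicate 2 of KO distal stomach, 4588 without replicate 2 of WT distal stomach, and 1477 to 3081 without any of the other 4. By the same model 8117 probe sets, 28.1%, were called in proximal stomach, where the design also has 2 arrays against 2.

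The precision behind the small count can be stated. The 95% confidence interval of the mean difference reached a median of 0.29 to either side of its estimate, and for 28220 probe sets (97.8%) it lay within a 2-fold change in either direction. The share was 92.7% in distal stomach alone and 92.2% in small intestine alone. The interquartile range of the mean differences ran from −0.08 to 0.13, and 21 probe sets differed by more than 1. These intervals are for 1 probe set at a time and rest on the spread pooled over all 14 groups of the series. Probe sets could pass the filter through other tissues: a filter on the 8 arrays alone kept 24470. A probe set low on these arrays can hardly show a 2-fold fall, yet it counts in these shares. The shares without such probe sets were not computed.

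The tissue labels were checked against defining markers. Gkn1, a gastric surface mucous cell protein, lay at 13.64 to 14.61 on the 4 distal stomach arrays and at 4.79 to 6.58 on the 4 small intestine arrays. Cdx2, the transcription factor that specifies intestine, lay at 13.60 to 13.88 in small intestine and at 5.54 to 6.54 in distal stomach. Vil1, the brush border protein villin, lay at 13.57 to 13.79 in small intestine. These markers separated the tissues on every array. By them there was 1 partial exception: replicate 2 of WT small intestine carried more gastric RNA than the other small intestine arrays. On it Tff1, a gastric trefoil peptide, stood at 9.05 against 6.33 to 6.85, and Nkx6-3, a transcription factor of the distal stomach, stood at 8.92 against 4.96 to 5.34. The part of that signal in any result below was not tested except where a value without that array is given. Genes of stratified epithelium were not part of this check. On replicate 2 of KO distal stomach Trp63 read 8.73 and Krt13, a squamous differentiation gene, 7.74. The other arrays of that tissue read 7.03 to 7.38 and 5.75 to 6.60. Krt5 and Krt14 were not raised on it, at 7.18 and 6.18. The cause was not tested.

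Libraries that share a replicate number resembled each other across tissues. Xist, the RNA of the inactive X chromosome (1427262_at), was at 12.55 and 13.08 on both WT replicate 2 arrays and at 4.40 to 4.93 on the other 6. Eif2s3y, a Y-linked translation factor gene, was at 11.89 to 12.03 on the KO and WT replicate 1 arrays and at 4.06 to 4.43 on the replicate 2 arrays. Both KO replicate 2 arrays were thus low for Xist and for Eif2s3y. The same pattern by number and genotype held in proximal stomach and large intestine. The X-linked gene Fam122b was at 4.39 and 4.44 on both KO replicate 1 arrays and at 7.68 to 8.87 on the other 6 arrays. Over all probe sets, the deviation of replicate 1 from replicate 2 correlated between the tissues at 0.50 in KO and 0.37 in WT. The 4 arrays of a genotype may therefore stand for 2 embryos. In that case p-values over 8 arrays are too small and the intervals of the mean too narrow. With the tissues averaged by number, 2 KO against 2 WT values, 0 probe sets were called by limma and 821 had an unadjusted p under 0.05.

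**Figure D1:**
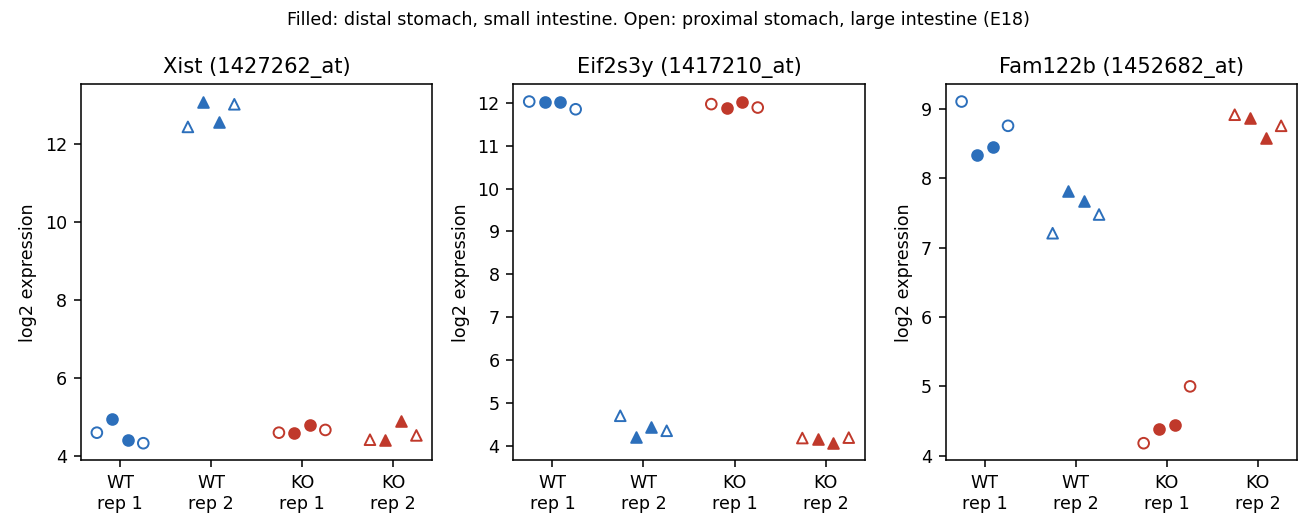
Level (log2) of Xist, Eif2s3y and Fam122b on the E18 gut arrays by genotype and replicate number, with filled symbols for distal stomach and small intestine and open symbols for proximal stomach and large intestine. Arrays of 1 genotype and number lie together in each panel, and KO replicate 2 is low for both Xist and Eif2s3y.

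Within distal stomach, replicate 1 of WT stood apart. The first principal component of the 8 arrays, 85% of the variance, separated the tissues, and the second, 5.87%, placed that array at 43.4 against −27.3 to 22.1 for the others. Replicates of a group correlated at 0.980 to 0.988. The array entered every result that follows, except where a value without it is given.

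Trp63 was measured by 4 probe sets. Where they lie relative to the deleted part of the gene is not known from the files, so their levels do not check the allele. For 1418158_at, which represents the gene in the lists below, the KO distal stomach values were 7.38 and 8.73 and the WT values 7.03 and 7.20. The small intestine values were 6.09 and 5.80 in KO and 5.68 and 5.75 in WT. In proximal stomach the same probe set stood at 13.16 and 13.31 in WT and at 13.67 and 13.78 in KO. In bladder at E18 it stood at 12.29 and 12.54 in WT and at 11.37 and 11.26 in KO. In distal stomach and in small intestine both KO values lay above both WT values. These levels were below the array medians except on KO distal stomach replicate 2. The mean difference was 0.58 (95% interval 0.03 to 1.14) and did not pass (limma, adjusted p = 0.679). Without KO distal stomach replicate 2 it was 0.25, and without KO distal stomach replicate 1 it was 0.92. The exact two-sided permutation of genotype within tissue gave p = 0.0556, the smallest it can give. Of the other probe sets, 1452027_a_at differed by −0.14 (limma, adjusted p = 0.8) and 1459581_at by −0.06 (limma, adjusted p = 0.961). The last, 1451876_a_at, was too low to be tested in the fit and differed by −0.05 (exact permutation p = 0.889). No probe set for Trp63 passed in either tissue alone by the same model.

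The 3 called probe sets are described next, with the first unnamed and the other 2 assigned to Fem1c and Aox3. The probe set 1458980_at carries no gene symbol. It read 8.75 and 8.13 in KO distal stomach against 6.93 and 6.42 in WT, and 6.96 and 6.88 in KO small intestine against 5.73 and 5.53 in WT. KO and WT did not overlap in either tissue. It rose by 1.53 (95% interval 1.07 to 1.98; limma, adjusted p = 0.0204), with 1.76 in distal stomach and 1.29 in small intestine. In the large intestine the difference was 0.85 and did not pass (limma, adjusted p = 0.988). In the proximal stomach it was 1.62 (limma, adjusted p = 0.00036). By these estimates the probe set was higher in KO in all 4 gut tissues. In bladder at E19 it was lower in KO, with group means of 6.85 in KO and 8.96 in WT. The earlier bladder stages are not given here, so this direction is for that stage only.

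Fem1c encodes a substrate receptor of a cullin ubiquitin ligase. Its probe set 1438075_at read 10.71 and 10.49 in KO distal stomach against 9.64 and 9.91 in WT, and 10.10 and 10.20 in KO small intestine against 9.25 and 9.75 in WT. The genotypes did not overlap in either tissue. The probe set rose by 0.74 (95% interval 0.50 to 0.98; limma, adjusted p = 0.0462). The gene's other probe set, 1428890_at, which represents it in the lists, differed by −0.00 (limma, adjusted p = 0.995). The 2 probe sets for Fem1c disagree, so the change belongs to 1 probe set and was not seen for the gene as a whole.

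Aox3 encodes an aldehyde oxidase. It read 6.94 and 7.32 in KO distal stomach against 6.27 and 6.11 in WT, and 6.25 and 6.10 in KO small intestine against 5.53 and 5.41 in WT. All 8 values lay below the array medians of 7.73 to 7.82. Aox3 rose by 0.82 (95% interval 0.54 to 1.10; limma, adjusted p = 0.0467). In proximal stomach Aox3 stood at 11.70 in KO and 5.83 in WT, a difference of 5.87, and in large intestine it differed by −0.08. The rise in proximal stomach exceeded that in the 2 columnar tissues by 5.05 (limma, adjusted p = 9.64e-13).

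**Figure D2:**
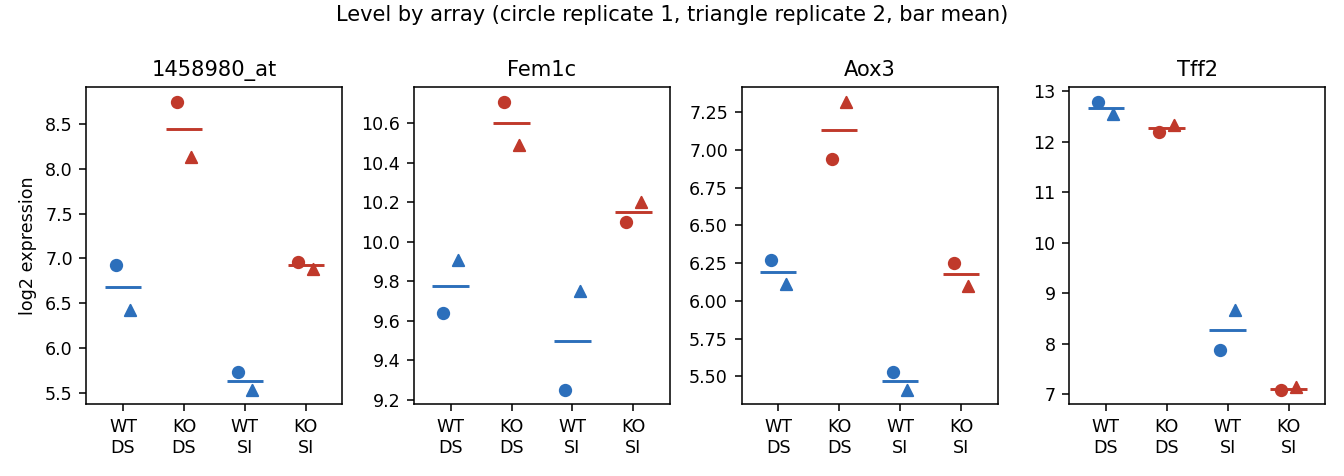
Level (log2) by array of the 3 called probe sets, and of Tff2, which did not pass, in WT (blue) and KO (red) distal stomach (DS) and small intestine (SI); circles are replicate 1, triangles replicate 2 and bars group means. KO lies above WT in both tissues for the 3 called probe sets, and below it for Tff2.

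These calls were near the threshold and depended on single arrays. The count for the mean was 188 without replicate 2 of WT distal stomach, where the outlying replicate 1 alone stood for WT. It was 11 without replicate 2 of WT small intestine, 5 without its replicate 1, and 0 or 1 without any of the other 5 arrays. The unnamed probe set was called under 16 of 25 alternative settings that tested it, Fem1c under 7 of 27 and Aox3 under 4 of 27.

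The genes with the next smallest p among those separated in both tissues did not pass. Cldn23, a claudin of tight junctions, read 11.56 and 11.21 in KO distal stomach against 10.27 and 10.82 in WT, and 10.78 and 10.98 in KO small intestine against 10.58 and 10.54 in WT. Its mean difference was 0.58 (limma, adjusted p = 0.142). Mycl, a transcription factor gene of the Myc family, differed by 0.52 (adjusted p = 0.34, limma) at one probe set and by 0.04 at another. Wdr31, a WD-repeat protein gene, likewise differed by 0.45 at one probe set and −0.02 at another. Ddx43, a DEAD-box helicase gene with signal below the array medians, differed by 0.78 (limma, adjusted p = 0.626).

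Among genes lower in KO none passed. The 5 with the smallest p among genes separated in both tissues, by the probe set that represents each gene, follow. Spp2, a secreted phosphoprotein gene, read 10.79 and 10.89 in KO small intestine against 11.68 and 11.37 in WT, and at the low level of distal stomach 4.90 and 4.76 against 5.79 and 5.80. It differed by −0.82 (limma, adjusted p = 0.34). Sult1c2, a sulfotransferase gene expressed here in stomach, read 10.28 and 10.19 in KO distal stomach against 11.98 and 10.83 in WT and differed by −0.96 (limma, adjusted p = 0.432). Tff2, the trefoil peptide of gastric neck mucous cells, read 12.19 and 12.33 in KO distal stomach against 12.79 and 12.55 in WT. In small intestine Tff2 read 7.09 and 7.14 in KO against 7.88 and 8.67 in WT, the higher WT value being that of the array with gastric RNA. It differed by −0.79 (limma, adjusted p = 0.432). B3galt4, a galactosyltransferase gene of glycolipid synthesis, differed by −0.67 (limma, adjusted p = 0.432), and Rnase4, a secreted ribonuclease gene, by −0.27 (limma, adjusted p = 0.525).

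The effects in distal stomach and small intestine were compared directly. No probe set differed in its KO effect between the 2 tissues (limma, 0 of 28866, 0%, with 416 probe sets at an unadjusted p under 0.05). The 95% interval of that difference reached a median of 0.57 to either side, wider than that of the mean. KO and WT did not overlap in distal stomach for 27.2% of probe sets and in small intestine for 40.9%. They were separated in both tissues and in the same direction for 8.92%, of which 6.53% were higher and 2.39% lower, and in opposite directions for 2.55%. With 2 arrays against 2, exchangeable labels alone separate a probe set in 1 tissue with a probability of 0.333. For both tissues in the same direction that probability is 0.0556 if the tissues are independent. Libraries that share a replicate number resembled each other across tissues, so that independence may not hold. Separation alone was therefore not read as an effect of genotype. Across probe sets the 2 tissues' differences had a Pearson correlation of 0.35 and a Spearman correlation of 0.34, over tissues whose libraries share their replicate numbers. An unadjusted p under 0.05 in both tissues and in the same direction was found for 78 probe sets, 0.27%.

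**Figure D3:**
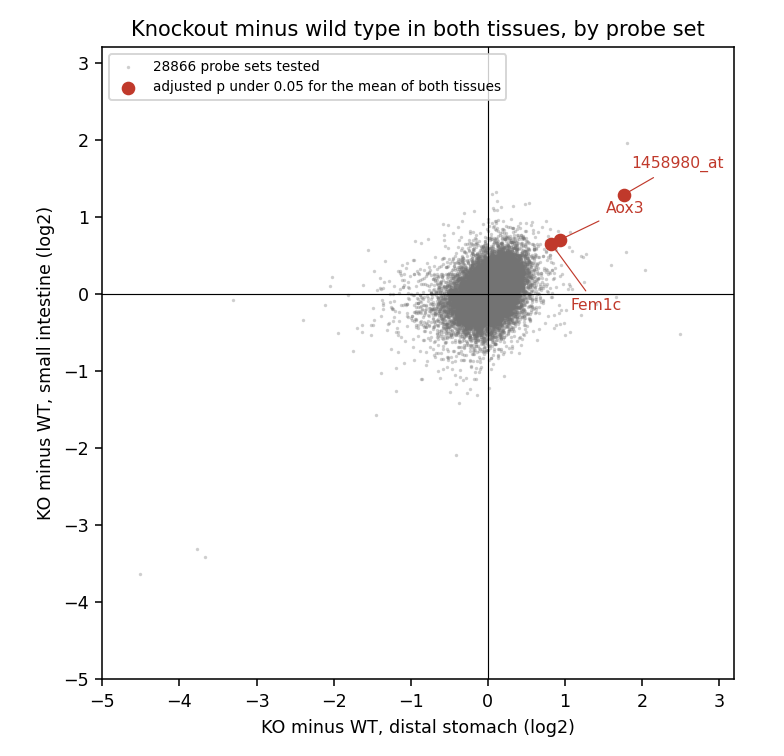
KO minus WT (log2) in small intestine against the same in distal stomach, with 1 grey point for each of the 28866 probe sets tested and the 3 called probe sets in red. Most points lie within 1 of zero on both axes, and the 3 points near −4 on both axes are probe sets of Xist, which is high only in WT replicate 2.

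Some genes differed by 1 or more in distal stomach without passing. Teddm3 and S100g were picked among them after their values were seen. Teddm3 read 7.29 and 7.44 in KO distal stomach and 12.33 and 9.03 in WT, a difference of −3.31 (limma, adjusted p = 0.289). The WT replicate that stood apart gave the highest value. Gast, which encodes gastrin, the hormone of the distal stomach, read 9.24 and 9.20 in KO distal stomach against 11.26 and 10.21 in WT, again highest on that array. Its mean difference over both tissues was −1.02 (limma, adjusted p = 0.432). Cldn4, another claudin gene, read 9.95 and 8.90 in KO distal stomach against 7.54 and 8.52 in WT, a difference of 1.40 (limma, adjusted p = 0.289), and differed by −0.13 in small intestine. S100g, a calcium-binding protein gene, read 10.23 and 9.42 in KO distal stomach against 11.23 and 11.12 in WT (limma, adjusted p = 0.289).

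Gene lists were examined by counts and medians, with 1 probe set representing each gene. None of 481 measured members of 38 lists was called (limma, smallest adjusted p 0.432), against 0.0104% of all probe sets. An unadjusted p under 0.05 was reached by 52 members (10.8%; 27 higher and 25 lower), beside 7.3% of all probe sets. The 95% interval lay within 2-fold for 413 members (85.9%), a lower share than the 97.8% over all probe sets. The median difference of all probe sets was 0.025, and centring every array on its median moved it to −0.02.

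Genes of squamous differentiation were at a low level in both genotypes. The mean level of 27 squamous differentiation genes was 5.85 to 5.99 in distal stomach and 5.38 to 5.66 in small intestine, beside 13.33 to 13.40 in WT proximal stomach and 8.31 to 8.62 in KO proximal stomach. Krt5, the keratin of basal cells, lay at 7.02 to 7.30 in distal stomach and 6.43 to 7.06 in small intestine, below the array medians. None of the 27 squamous genes was called in the 2 columnar tissues, with a median difference of −0.09. The list's mean level there lay below the array medians of 7.73 to 7.82, where a further fall could hardly be measured. Such genes can enter the test through other tissues, so the lack of calls says little. In proximal stomach 23 of the 27 fell, beside 11.7% of all probe sets, with a median of −4.56. The difference between the contrasts was called for 23, beside 21.4% of all probe sets, and largely repeats that fall. Crct1, a cornified envelope gene, had the smallest p of the list in the columnar tissues, with a difference of −0.58 (limma, adjusted p = 0.679) at levels of 5.69 to 6.51. Krt13 went the other way in distal stomach, at 6.60 and 7.74 in KO against 6.17 and 5.75 in WT. That difference of 1.21 did not pass (limma, adjusted p = 0.615), and in small intestine Krt13 differed by −0.28. Of 16 basal epithelial genes none was called, 8 were higher and 8 lower, and the median was 0.00. Their mean level was 8.57 to 8.79 in distal stomach and 7.88 to 8.09 in small intestine, beside 11.85 and 12.02 in WT proximal stomach. Krt15, a keratin of basal progenitors, read 10.53 and 11.07 in KO distal stomach against 9.07 and 10.41 in WT, and its mean difference of 0.60 did not pass (limma, adjusted p = 0.725).

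**Figure D4:**
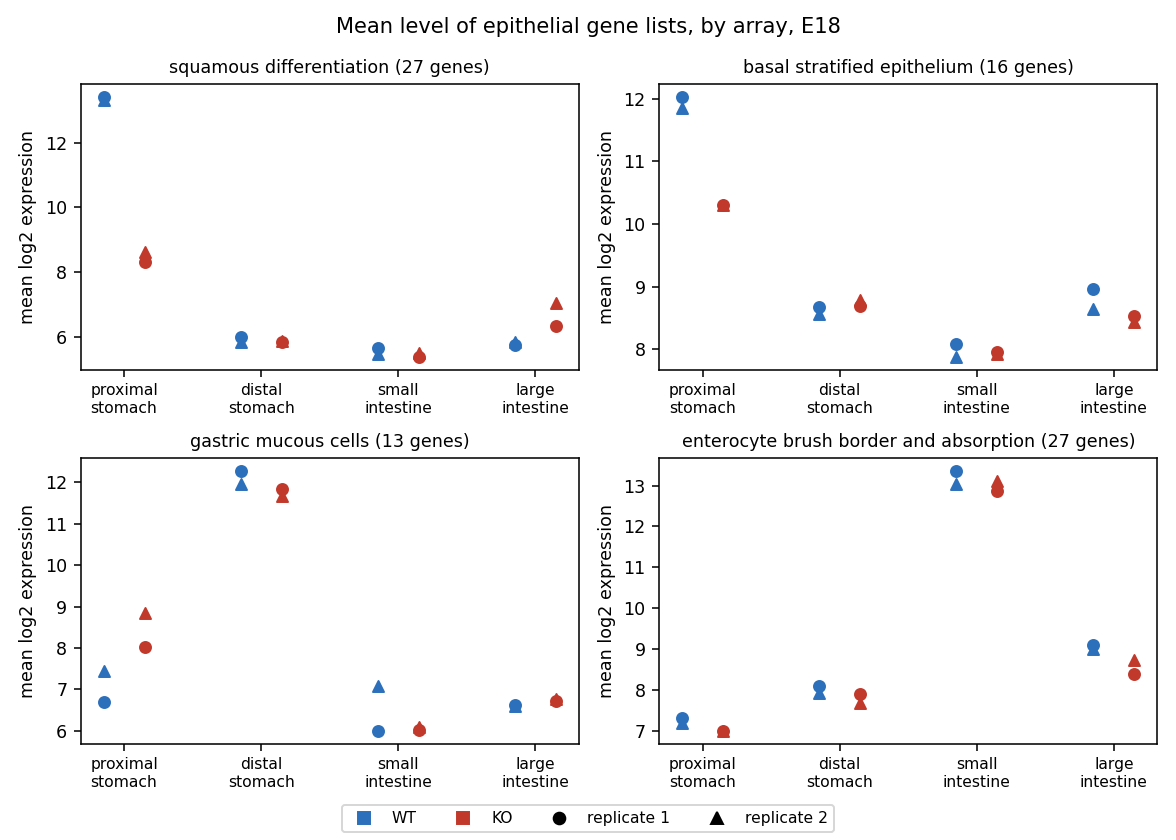
Mean level (log2) of 4 gene lists on each E18 gut array, WT in blue and KO in red, circles for replicate 1 and triangles for replicate 2. Squamous genes lie at 13.33 and above in WT proximal stomach and near 6 or lower in distal stomach and small intestine of both genotypes. Gastric mucous genes are highest in distal stomach, and brush border genes in small intestine.

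The simple columnar genes shared by both tissues, such as keratins Krt8, Krt18 and Krt19, had a median difference of −0.03 over 21 genes, with 9 higher and 12 lower and none called. In proximal stomach 19 of the same 21 rose in KO, beside 16.4% of all probe sets, with a median of 2.24. The difference between the contrasts was called for 16 of them, beside 21.4% of all probe sets. Their mean level was 11.59 to 11.77 in distal stomach and 11.98 to 12.11 in small intestine, and the genotypes overlapped in both.

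Genes of the differentiated gastric and intestinal cells lay mostly on the lower side in KO, with none called. Of 13 gastric mucous cell genes 11 were lower, with a median of −0.44. Their mean level in distal stomach was 11.83 and 11.66 in KO and 12.27 and 11.97 in WT. In small intestine it was 6.01 and 6.08 in KO against 6.0 and 7.08 in WT, and the 7.08 is the array with gastric RNA. The median was −0.25 without that array and −0.69 without replicate 1 of WT small intestine. Gkn3, a gastrokine, read 10.84 and 10.83 in KO distal stomach and 12.33 and 11.26 in WT. In small intestine Gkn3 read 5.72 and 5.36 in KO and 5.07 and 7.74 in WT, so the genotypes overlapped, and the 7.74 is again the array with gastric RNA. Its difference over both tissues of −0.91 did not pass (limma, adjusted p = 0.679), nor did the −1.23 of its other probe set (limma, adjusted p = 0.142), by which KO and WT were separated in both tissues. Chief and parietal cell genes, among them the proton pump subunits Atp4a and Atp4b, had a median of −0.27 with 10 of 12 lower. That median was −0.07 without replicate 1 of WT distal stomach, whose list level of 11.47 stood above the 10.71 to 10.79 of the other 3 arrays of the tissue.

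The 27 brush border and absorption genes of enterocytes had a median of −0.22, with 23 lower and 4 higher. Their level in small intestine was 12.87 and 13.11 in KO and 13.35 and 13.04 in WT, so the genotypes overlapped. Cdhr2, a cadherin that links microvilli, had the smallest p, with a mean difference of −0.56 (limma, adjusted p = 0.679). It read 12.20 and 12.59 in KO small intestine against 12.90 and 12.40 in WT, where the genotypes overlapped and differed by −0.25. At the low level of distal stomach it read 6.35 and 6.07 in KO against 7.11 and 7.05 in WT, a difference of −0.87. Fabp1, the fatty acid binding protein of enterocytes, lay at 14.44 to 14.58 on all 4 small intestine arrays. Goblet cell genes had a median of −0.27 (10 of 13 lower). Their most extreme member, Clca1, read 10.41 on replicate 1 of WT distal stomach and 6.40 to 7.23 on the other distal stomach arrays, while it was at 12.97 to 13.24 in small intestine. Enteroendocrine genes had a median of −0.29 (13 of 16 lower), which became 0.03 without replicate 1 of WT in both tissues. The same omission moved the brush border median to −0.11 and the goblet cell median to −0.09.

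Proliferation genes lay on the higher side, all 20 of them, with a median of 0.24 and differences of 0.13 to 0.37. None was called, and 10 had an unadjusted p under 0.05, beside 4.83% of all probe sets that were higher at that p. KO and WT were separated in both tissues for 8 of the 20, beside 6.53% of all probe sets. The list's mean level was 11.36 and 11.40 in KO distal stomach against 10.96 and 11.33 in WT, and 11.28 and 11.28 in KO small intestine against 10.90 and 11.16 in WT. The WT replicate 1 arrays were the lowest of their tissues, and without them the median was 0.07. Bub1b, a spindle checkpoint kinase gene, read 10.68 and 10.82 in KO distal stomach against 10.36 and 10.65 in WT, and 10.87 and 10.88 in KO small intestine against 10.27 and 10.61 in WT. Its difference was 0.34 (limma, adjusted p = 0.679). The replication helicase gene Mcm5 read 10.53 on replicate 1 of WT distal stomach and 11.40 to 11.43 on the other 3 arrays of that tissue, with a mean difference of 0.37 (limma, adjusted p = 0.679).

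**Figure D5:**
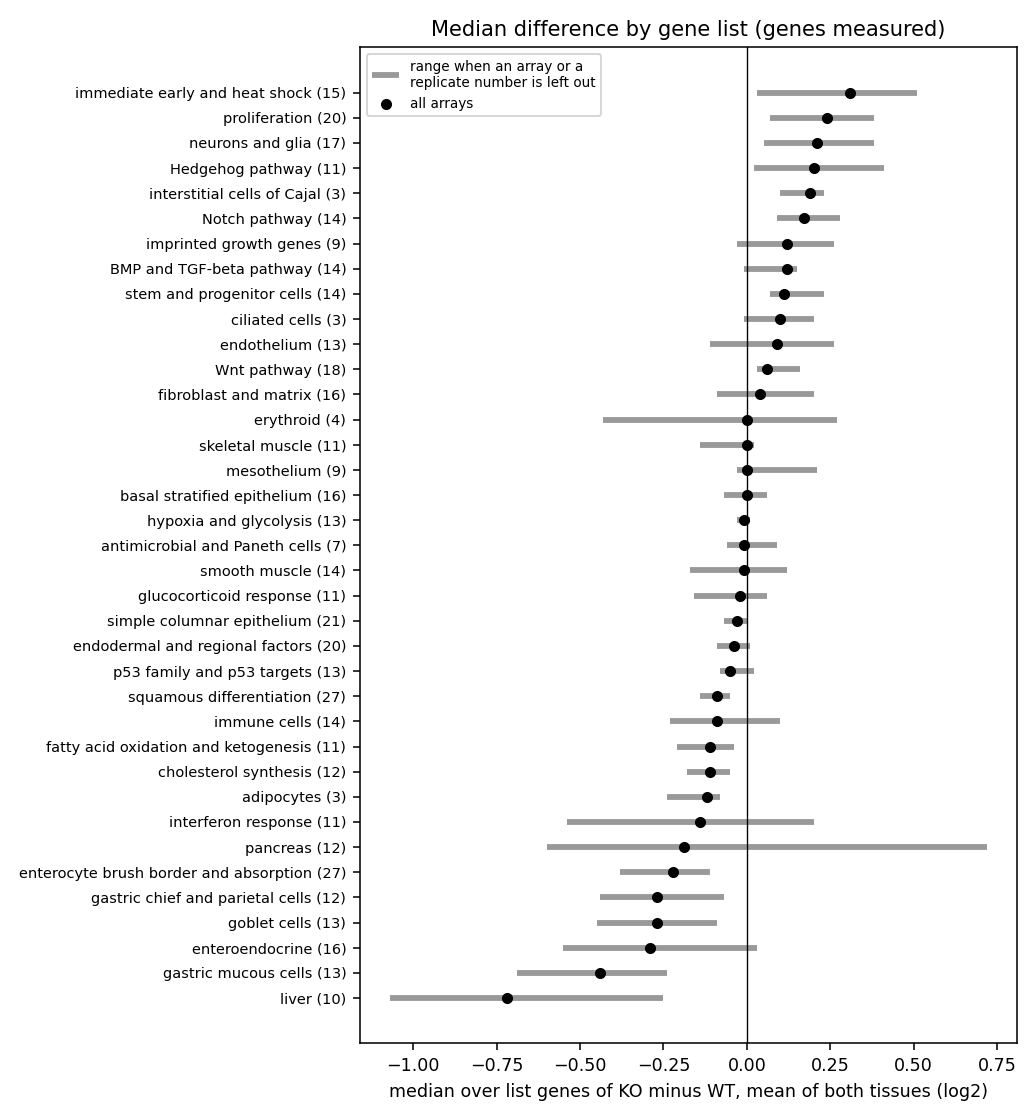
Median over the genes of each list of KO minus WT (log2, mean of both tissues), for 37 lists (the sex-linked list is not drawn), with the number of genes measured in brackets; points use all arrays and grey bars span the medians found when 1 of the 8 arrays, or 1 replicate number of a genotype in both tissues, was left out. Medians run from −0.72 for liver to 0.31 for immediate early genes, and no list had a called member.

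Genes of signalling pathways were not called either. All 11 measured Hedgehog pathway genes were higher, with a median of 0.20, and 10 of 11 when arrays were centred on their medians; without replicate 1 of WT in both tissues the median was 0.02. Smo, the signal transducer of that pathway, differed by 0.42 (limma, adjusted p = 0.679). Shh, its ligand, read 10.04 and 9.63 in KO small intestine against 7.96 and 9.52 in WT. For Notch genes 12 of 14 were higher (median 0.17, and 0.09 without replicate 2 of KO in both tissues), and Dll1, a Notch ligand gene, differed by 0.44 (limma, adjusted p = 0.679). Wnt genes had a median of 0.06 with 12 of 18 higher, which became 0.16 without replicate 1 of KO in both tissues. BMP and TGF-beta genes had a median of 0.12 with 9 of 14 higher, which became −0.01 without replicate 2 of KO in both tissues. Of 14 stem and progenitor cell genes 12 were higher (median 0.11, with 0.07 without replicate 1 of WT and 0.23 without replicate 2 of WT in both tissues), among them Tnfrsf19, a receptor gene marking intestinal progenitors, by 0.50 (limma, adjusted p = 0.679).

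None of 13 genes of the p53 family and its targets was called, and their median was −0.05. Trp73, the family member nearest to p63, lay at 5.26 to 5.88 on the 8 arrays and differed by −0.08 (limma, adjusted p = 0.928). Cdkn1a, the cell cycle inhibitor induced by p53, differed by −0.24 (limma, adjusted p = 0.749), and Mdm2, the ubiquitin ligase for p53, by 0.01 (limma, adjusted p = 0.983).

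Markers of other tissues that can be attached to the gut varied between arrays. Liver genes were lower in KO for all 10 measured members, with a median of −0.72. Their mean level was 8.97 on replicate 2 of WT distal stomach and 7.0 to 7.42 on the other 3 arrays of that tissue, and Alb, serum albumin, was at 10.69 there and at 6.23 to 7.17 on the others. Without that array the liver median was −0.25. Pancreas genes had a mean level of 9.73 on replicate 1 of KO small intestine and 9.66 on replicate 2 of WT small intestine, beside 7.19 and 7.28 on the other small intestine arrays. Immediate early and heat shock genes, which respond to tissue handling, had a median of 0.31. Their level was 10.63 on replicate 1 of KO distal stomach and 9.49 to 9.68 on the other 7 arrays, and the median was 0.03 without replicate 1 of KO in both tissues. Egr1, the member with the smallest p, read 13.87 on replicate 1 of KO distal stomach. Its mean difference of 1.17 did not pass (limma, adjusted p = 0.679). The part of these tissues and of handling in the gene results was not tested. Smooth muscle (median −0.01), fibroblast (0.04), immune (−0.09) and endothelial genes (0.09) had medians near zero with all arrays. Leaving out an array, or a replicate number of a genotype, moved the smooth muscle median from −0.17 to 0.12 and the fibroblast median from −0.09 to 0.2. The same omissions moved the immune median from −0.23 to 0.1 and the endothelial median from −0.11 to 0.26. Neuronal and glial genes were higher for 16 of 17, with a median of 0.21 that became 0.05 without replicate 1 of WT in both tissues.

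The KO effect of the 2 columnar tissues was also set against that of the other E18 gut tissues. It differed from the effect in proximal stomach for 6189 probe sets (21.4%; limma, adjusted p under 0.05), and from the effect in large intestine for 4 probe sets (0.0139%). In large intestine alone 18 probe sets were called, 0.0624%. Across probe sets the mean difference of the columnar tissues correlated with that of large intestine at a Pearson r of 0.34 and with that of proximal stomach at 0.04, over libraries that share replicate numbers.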

How the data were processed

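Total RNA of each sample was labelled with biotin and hybridised to an Affymetrix mouse 430 2.0 array, per the labels' protocols. The deposited values are log2 expression values, 1 per probe set and array. The programs used were Affymetrix Expression Console and Partek, per the submitters' processing notes; the normalization is not given in the sources used here, and the values were used as deposited. The number of arrays limits the precision.

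One model was fitted with limma 3.58.1 in R 4.3.3 (data.table package, version 1.17.8) to all 28 arrays, with a mean for each of 14 groups, 14 residual and 6.34 prior degrees of freedom and a variance trend. Contrasts were KO minus WT in each tissue, their mean (tissue as a factor), their difference, and the mean minus the contrast in large intestine and in proximal stomach. P-values are two-sided and adjusted over 28866 probe sets. Single values outside the fit were tested by exact permutation of genotype within tissue (36 arrangements). Gene symbols came from the platform annotation, updated through RefSeq (GRCm38.p6) by gene identifier. Each gene stands for its brightest tested probe set, by mean over the 28 arrays, that has a single symbol. The code of the fit was tested on simulated data with independent arrays. That does not check the calls where arrays share an embryo or 1 array stands apart. Figures used Python 3.11.15 with matplotlib 3.10.9.

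Named genes were Trp63, the called genes, and the 5 with the smallest p in each direction among genes separated in both tissues. The largest 4 each way in the comparisons with the other tissues were named as well. For part of the lists the member with the smallest p was named, and for the others it was not. Predicted and sex-linked genes were passed over. Other genes, among them Fem1c, Clca1, Alb, Krt13, Krt14, Krt15, Mcm5, Shh and the probe set without a symbol, were named after their values were seen. The comparison, the lists and the rules were chosen with earlier results of these data known. Alternatives covered scaling, filters, arrays in the fit, probe set choice, variance trend, array weights, blocks by replicate number, the actin 3′ to 5′ ratio as a covariate, and leaving out arrays.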

Additional observations from a re-analysis of the deposited data

Results flagged for a closer look

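The KO effect in the 2 columnar tissues was compared with that in each of the other gut tissues, by a test of the difference itself with limma. Against large intestine only 4 of 28866 probe sets differed, 0.0139%. The desmosomal cadherin gene Dsc3 differed by 2.90: it was lower in KO large intestine (6.01 against 8.83 in WT) and 0.08 apart in the columnar tissues. The other 3, all squamous genes, went the other way, with differences of −5.35 for Lce3f, −2.77 for Sprr2d and −1.87 for Lce1a1. Dsc3 and Sprr2d were called under all 26 alternatives that tested them and Lce3f under 24 of 26, but Lce1a1 under 8 of 25, and not without any 1 of the 4 KO arrays or of the 2 WT replicate 1 arrays. Sprr2d, for example, stood at 7.84 in KO and 5.18 in WT large intestine, while it differed by −0.12 in the columnar tissues.

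Against proximal stomach 6189 probe sets differed, 21.4%. The largest positive differences among named genes were cornified envelope and skin barrier genes, with 9.34 for Lce3a, 9.30 for Hrnr, 9.27 for Lce3f and 9.18 for Cdsn. Lce3a, for example, stood at 14.44 in WT and 4.85 in KO proximal stomach and at 4.67 to 5.22 in the 8 columnar arrays. At such levels a fall in the columnar tissues could hardly be measured, so these positive differences largely repeat the fall in proximal stomach. The largest negative differences were −8.01 for Spink4, −7.09 for Agr2, −6.90 for Alox15 and −6.54 for Adh7. Agr2, a mucous cell protein gene, was 7.01 higher in KO than in WT proximal stomach and differed by −0.08 in the columnar tissues.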

How the results depend on the processing

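Over 27 alternatives, 7 of them chosen after seeing the data, the count for the mean of both tissues was 0 to 606. It was 1 with arrays centred, 0 with a filter at the 75th percentile, 0 with only the compared arrays, 0 with 1 probe set per gene, 0 with array weights, 1 with the replicate number as a random block across tissues, 0 without bladder E19, 1 with gut tissues only and 0 with tissues averaged by number. With the replicate number as a block it was 1, but KO and WT share only a number: deviations of same-numbered arrays correlated at 0.28 in distal stomach and −0.07 in small intestine. Leaving out 1 array gave 0 to 188. Leaving out a replicate number of a genotype in both tissues gave 606 without WT replicate 2 and 0 without KO replicate 2. The ranges over such omissions were 0 to 330 in distal stomach (328 without WT replicate 2 of both tissues), 0 to 20 in small intestine (18 without 1 array, 2 without KO replicate 1, 4 without WT replicate 1), 0 to 55 for their difference (36 without WT replicate 2, 1 without WT replicate 1) and 0 to 22 for list genes (10 without 1 array, 1 without WT replicate 1). Where 1 array was left to a group, it was assumed to vary like the other groups.

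The difference from large intestine gave 0 with a filter on the 8 arrays, 2 with only the compared arrays, 2 with gut tissues only, and 3 to 7 without 1 array or 10 without WT replicate 2. That from proximal stomach gave 3573 with 1 probe set per gene, where fewer features are tested, and 2397 with the actin covariate; the cause of the others was not tested. With centring, 710 probe sets were higher and 1368 lower at an unadjusted p under 0.05, in place of 1394 and 714. Reversed values, all of genes not called, were 0.01 for Postn without KO replicate 1 and 0 for Ednrb without WT replicate 1. For Tfrc, leaving out 1 array gave −0.03 to 0.12, with −0.03 without WT distal stomach replicate 2, −0.01 without WT small intestine replicate 1 and −0.04 over its probe sets. For Ccdc39 it gave −0.08 to 0.29, with −0.08 without WT distal stomach replicate 1, −0.01 without KO replicate 1 and −0.12 without WT replicate 1.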

Other observations

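The 20 genes that neighbour Trp63 on chromosome 16 were examined, 10 on each side. Of these 12 were measured and none was called in the mean of both tissues (limma, smallest adjusted p 0.678; 2 at an unadjusted p under 0.05). Their differences ran from −0.69 for Sst, the somatostatin gene, to 0.40 for Masp1, a complement protease gene. Sst read 10.43 on replicate 1 of WT distal stomach and 8.27 to 8.49 on the other distal stomach arrays.

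Adipocyte lipid droplet gene Cidec, which enterocytes also express, differed by −0.98, and Iigp1, an interferon-induced GTPase gene, by −0.99; neither passed (limma, adjusted p = 0.679 for both). Iigp1 read 7.98 on replicate 1 of WT small intestine and 6.40 to 6.70 on the other 3 arrays of that tissue. Cholesterol synthesis genes were lower for 11 of 12, with a median of −0.11, and fatty acid oxidation and ketogenesis genes for 10 of 11, also with a median of −0.11. Without replicate 1 of WT in both tissues these medians were −0.05 and −0.04, and without replicate 2 of WT distal stomach −0.12 and −0.21.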
